A study of Mus musculus musculus x Mus musculus castaneus with 8 samples.

Results

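The kinesin genes were taken as every gene of the deposited composite count table whose symbol begins with Kif or Kifc followed by a digit, which gave 44 of 24421 genes. They were sorted by role into 14 mitotic kinesins, 17 kinesins of intracellular transport, 10 other kinesins and 3 genes that match the pattern without coding for a motor (Kif1bp, a kinesin-binding protein, Kif16bos, an antisense transcript, and Kif4-ps, a pseudogene). Enough reads for a test were found for 38 of the 44 genes, made up of 13 mitotic, 17 transport and 7 other kinesins and Kif1bp, among 12643 genes tested in all.

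Kinesins are motor proteins that use ATP to walk along microtubules or to take them apart. Mitotic kinesins build and position the spindle, move chromosomes and complete cytokinesis, and are made mainly by dividing cells, whereas transport kinesins carry vesicles, mitochondria and other cargo and some of them are best known from neurons. Several further kinesins act at the centriole and the primary cilium, an antenna that fibroblasts form when they stop dividing, or bind microtubules without working as motors.

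RNA was sequenced from tail fibroblasts of female F1 hybrid mice (Mus musculus musculus crossed with Mus musculus castaneus, called mus and cas here) in 4 groups of 2 libraries each. The groups were 5azadC, a cytidine analogue that blocks DNA methylation; VX680, an inhibitor of the Aurora kinases that drive mitosis; 5azadC together with VX680; and untreated cells given DMSO, the solvent, at the volume the other plates had. RNA was taken 72 h after plating, on 15 cm plates, and treated cells had the drugs in their medium from 24 h on. The labels do not say that libraries of a group come from separate cultures, so p-values measure only the spread between these libraries, which may be technical.

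Reads assigned to genes numbered 6908503 to 11169532 per library. Libraries of the 5azadC group differed most from each other, with a chi-square per degree of freedom of 20.4 across genes, against 3.09 for VX680, 2.77 for the combined treatment and 7.70 for untreated. All 12 fibroblast markers looked up had reads in every group, and their summed level was 20426 to 25117 CPM (reads per gene scaled to library depth) with 5azadC, 15025 to 15549 with VX680, 12291 to 12514 with both drugs and 34614 to 38956 in untreated cells. Of the 11 markers tested, 2 were higher and 6 lower with 5azadC, 3 and 8 with VX680, and 3 and 8 with both drugs, by edgeR's quasi-likelihood test at an adjusted p under 0.05. Of all genes tested, 22.6% were higher and 19.6% lower with 5azadC, 23.8% and 22.4% with VX680, and 28.4% and 27.3% with both drugs. The part of the marker changes in the kinesin results was not tested. In bulk RNA, fewer cells of a type and less RNA per cell cannot be told apart.

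A pair of the mitotic kinesins are near copies of each other, Kifc1 and Kifc5b, both on chromosome 17. Their longest GENCODE M21 transcripts (build GRCm38) were 96.8% identical over 2312 aligned bases, and 45.8% of the 50-base windows of Kifc1 occur unchanged in Kifc5b. The stretch of 60 coding bases in which the copies differ most is shown because reads that miss such positions fit either gene, with the differing bases in capitals (transcript positions 199 to 258 in Kifc1 and 207 to 266 in Kifc5b).
Kifc1: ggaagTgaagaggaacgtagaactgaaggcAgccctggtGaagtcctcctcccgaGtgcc
Kifc5b: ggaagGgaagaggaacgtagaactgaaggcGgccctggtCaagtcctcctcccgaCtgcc
Even there only 4 bases separate them, and reads from the 45.8% of shared windows fit both genes. How such reads were placed is not given in the sources used here, so the split of reads between Kifc1 and Kifc5b is uncertain. Exons on the opposite strand overlap those of Kif20a (Cdc23), Kif26b (Gm16564), Kif3c (1110002L01Rik), Kif4 (Pdzd11), Kif2a (Dimt1), Kif7 (9330171B17Rik and Ticrr) and Kifc2 (Cyhr1). The libraries mark strand, but whether the counting used it is not given in the sources used here, so reads of such partners cannot be told apart.

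Levels were compared between genes per length, as CPM per kilobase of gene length (RPKM). Kif20a, a motor of the central spindle needed for cytokinesis, had the highest level in untreated cells, 76.6 ± 6.41 RPKM (SD, n = 2). Kif1c, a transport kinesin of vesicles and focal adhesions, followed with 56.9 ± 6.12 RPKM, and Kif23, the motor of centralspindlin, with 47.0 ± 2.62 RPKM. The libraries of these 3 genes did not overlap in untreated cells. Next came Kif2c with 37.0 ± 4.21, Kifc1 with 36.4 ± 3.89, Kif5b with 35.9 ± 2.09 and Kif18b with 33.9 ± 3.71 RPKM, which do not differ beyond their spread. Of these 7 leading genes, Kif1c and Kif5b are transport kinesins and the other 5 are mitotic.

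The summed level of the mitotic class was higher wherever VX680 was present and not with 5azadC alone. It was 1242 and 1066 CPM with 5azadC, 1513 and 1532 CPM with VX680, 1496 and 1577 CPM with both drugs and 1337 and 1206 CPM in untreated cells. Every library of both groups that held VX680 lay above both untreated libraries, while the 5azadC libraries overlapped them.

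**Figure D1:**
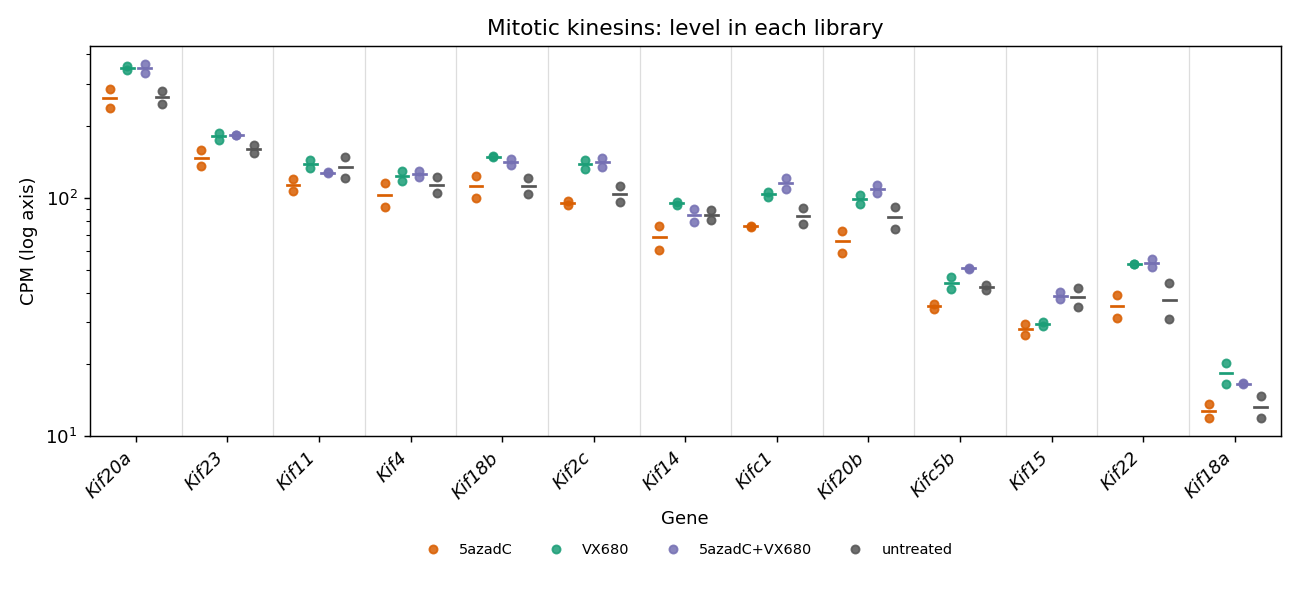
Level of the 13 tested mitotic kinesins in each library, in CPM on a log axis, with 1 point per library and a bar at the mean of the 2 libraries of a group. Kif2c, Kif20a and Kif18b are higher in all libraries with VX680, alone or with 5azadC, than in untreated libraries, and Kif15 is lower in the 5azadC and VX680 libraries.

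With 5azadC alone, 2 of 13 mitotic kinesins were lower and 0 higher by edgeR's quasi-likelihood test at an adjusted p under 0.05, where 19.6% of all genes tested were lower and 22.6% higher. The 2 lower are near the share of all genes. At an unadjusted p under 0.05 the counts were 5 lower and 0 higher, and DESeq2 and limma each called 1 lower and 0 higher. All 13 fold changes were below 0, where 6340 of 12643 genes tested were above 0. The median log2 fold change was -0.14 against 0.00 over all genes tested. Kif18b and Kif20a lay close to 0 (-0.005 and -0.011). These genes and Kif22, Kif18a and Kif4 were above 0 in at least 1 alternative setting, so the shared direction depends on the setting. Kif15, which can stand in for Kif11 in holding spindle poles apart, had 29.6 and 26.6 CPM with 5azadC, against 42.0 and 34.9 CPM in untreated cells. Its groups did not overlap (log2 fold change -0.46 ± 0.14 SE, edgeR adjusted p = 0.0161), though without untreated replicate 1 the adjusted p was 0.146. Kif20b, a motor of late cytokinesis, had 72.6 and 58.8 CPM with 5azadC against 91.9 and 73.7 CPM untreated, groups that nearly touch (-0.34 ± 0.13, edgeR adjusted p = 0.0499). That call lies at the threshold and was lost in 11 of 15 alternative settings. The count of mitotic kinesins that were lower ran from 0 without untreated replicate 1 to 5 without 5azadC replicate 1, and was 1 without any of 5azadC replicate 2, the VX680 libraries or the libraries given both drugs.

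With VX680 alone, 5 mitotic kinesins were higher and 1 lower, against 23.8% and 22.4% of all genes tested. The median log2 fold change of the class was 0.25, against 0.01 over all genes. Kif2c, which depolymerises microtubules at centromeres, had 144 and 132 CPM with VX680, against 112 and 95.6 CPM in untreated cells. Its level was higher in both treated libraries (0.41 ± 0.10, edgeR adjusted p = 0.00538). Kif20a had 357 and 345 CPM with VX680, against 279.9 and 249 CPM untreated, without overlap (0.41 ± 0.10, edgeR adjusted p = 0.00561). Kif18b, which limits the length of astral microtubules, had 148 and 149.9 CPM with VX680, against 104 and 121 CPM untreated, again without overlap (0.41 ± 0.11, edgeR adjusted p = 0.00925). Kif22, a chromosome-arm motor, and Kifc1, which focuses spindle poles, were the others that rose, by 0.48 ± 0.16 and 0.29 ± 0.10. Kif15 went the other way, with 30.1 and 28.9 CPM under VX680 against 42.0 and 34.9 CPM untreated (-0.39 ± 0.14, edgeR adjusted p = 0.0312). These calls lean on single libraries: 0 mitotic kinesins were higher without VX680 replicate 1, 2 without VX680 replicate 2 and 1 without untreated replicate 2. Kif15 lost its call without either VX680 library and without untreated replicate 1 (edgeR adjusted p = 0.102, 0.144 and 0.235).

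With both drugs, 6 mitotic kinesins were higher and 0 lower by edgeR, against 28.4% and 27.3% of all genes tested. At an unadjusted p under 0.05 the counts were 7 and 0, and DESeq2 called 6 and 0 and limma 8 and 0. The median log2 fold change was 0.31, against 0.01 over all genes. Kifc1 had 109 and 121 CPM with both drugs, against 90.3 and 77.6 CPM in untreated cells (0.45 ± 0.10, edgeR adjusted p = 0.00212). Kif2c had 135 and 147 CPM against 112 and 95.6 CPM (0.43 ± 0.10, adjusted p = 0.00296), and Kif20a had 334 and 365 CPM against 279.9 and 249 CPM (0.40 ± 0.10, adjusted p = 0.00470). None of these 3 genes overlapped between the groups. Kif22, Kif20b and Kif18b were the other 3, with log2 fold changes of 0.50 ± 0.16, 0.39 ± 0.13 and 0.34 ± 0.11. Kif11, the motor that pushes spindle poles apart, had 127 and 128 CPM with both drugs against 148 and 121 CPM untreated and passed no threshold (-0.08 ± 0.11, edgeR adjusted p = 0.557). The count of 6 fell to 2 without the second library given both drugs and to 3 without untreated replicate 2.

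Set against 5azadC alone, adding VX680 raised 9 of 13 mitotic kinesins and lowered 0 by edgeR, where 9.98% of all genes were higher and 14.8% lower. All 13 fold changes were above 0, as were 6271 of 12643 genes tested. The median was 0.41 against 0.00 over all genes, and at an unadjusted p under 0.05 the counts were 11 and 0. DESeq2 called 9 and 0 and limma 11 and 0. The 9 became 5 without 5azadC replicate 2 or without the first library given both drugs, and 4 without the second. The widest differences among those called were of Kif20b (0.73 ± 0.13), Kifc1 (0.60 ± 0.10) and Kif22 (0.59 ± 0.16), and Kif22 lost its call in those 3 cases (edgeR adjusted p = 0.0544, 0.0596 and 0.112). Over all kinesin genes 15 were called, which became 9 without the first and 8 without the second library given both drugs. This comparison shares libraries with those above, so its counts are not independent of theirs.

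Partners of these motors and other cell cycle genes gave the following counts. Of 13 spindle proteins, 9 were higher and 1 lower with VX680, 10 and 1 with both drugs, and 0 and 2 with 5azadC (0 and 3 at an unadjusted p, 0 and 3 by DESeq2, 0 and 2 by limma). Without VX680 replicate 2 or untreated replicate 2 the 9 became 5. Without untreated replicate 2 or the second library given both drugs the 10 became 6, and the 2 lower with 5azadC became 4 without 5azadC replicate 1. Hmmr, a microtubule-binding spindle protein, had 90.6 and 89.4 CPM with VX680 against 57.6 and 49.4 CPM in untreated cells (log2 fold change 0.74 ± 0.11, edgeR adjusted p = 9.12e-05). Numa1, which anchors dynein at spindle poles, fell in every treatment, by 0.61, 0.76 and 0.83 on the log2 scale with 5azadC, VX680 and both drugs. Cenpe, a centromere kinesin that the symbol pattern misses, was not called, with 0.04 ± 0.12 under VX680 and 0.20 ± 0.12 under both drugs. Of 12 cell cycle genes, 5 were higher and 1 lower with VX680, 8 and 1 with both, and 2 and 3 with 5azadC. By limma the 1 lower was 0 with VX680 and 0 with both drugs. The 8 became 5 without the second library given both drugs, and the 3 became 1 without 5azadC replicate 2 or untreated replicate 1. Aurka, a target of VX680, had 173 and 178 CPM with VX680 against 92.7 and 79.4 CPM untreated (1.02 ± 0.10, edgeR adjusted p = 2.97e-06). Aurkb, the other such target listed, had 112 and 116 CPM against 104 and 86.8 CPM and was not called (0.25 ± 0.10, edgeR adjusted p = 0.0663). Of all genes, 23.8% were higher and 22.4% lower with VX680, 28.4% and 27.3% with both drugs, and 22.6% and 19.6% with 5azadC. With 5azadC, the 2 spindle proteins lower and both counts of cell cycle genes are near these shares. The share of dividing cells was not measured.

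**Figure D2:**
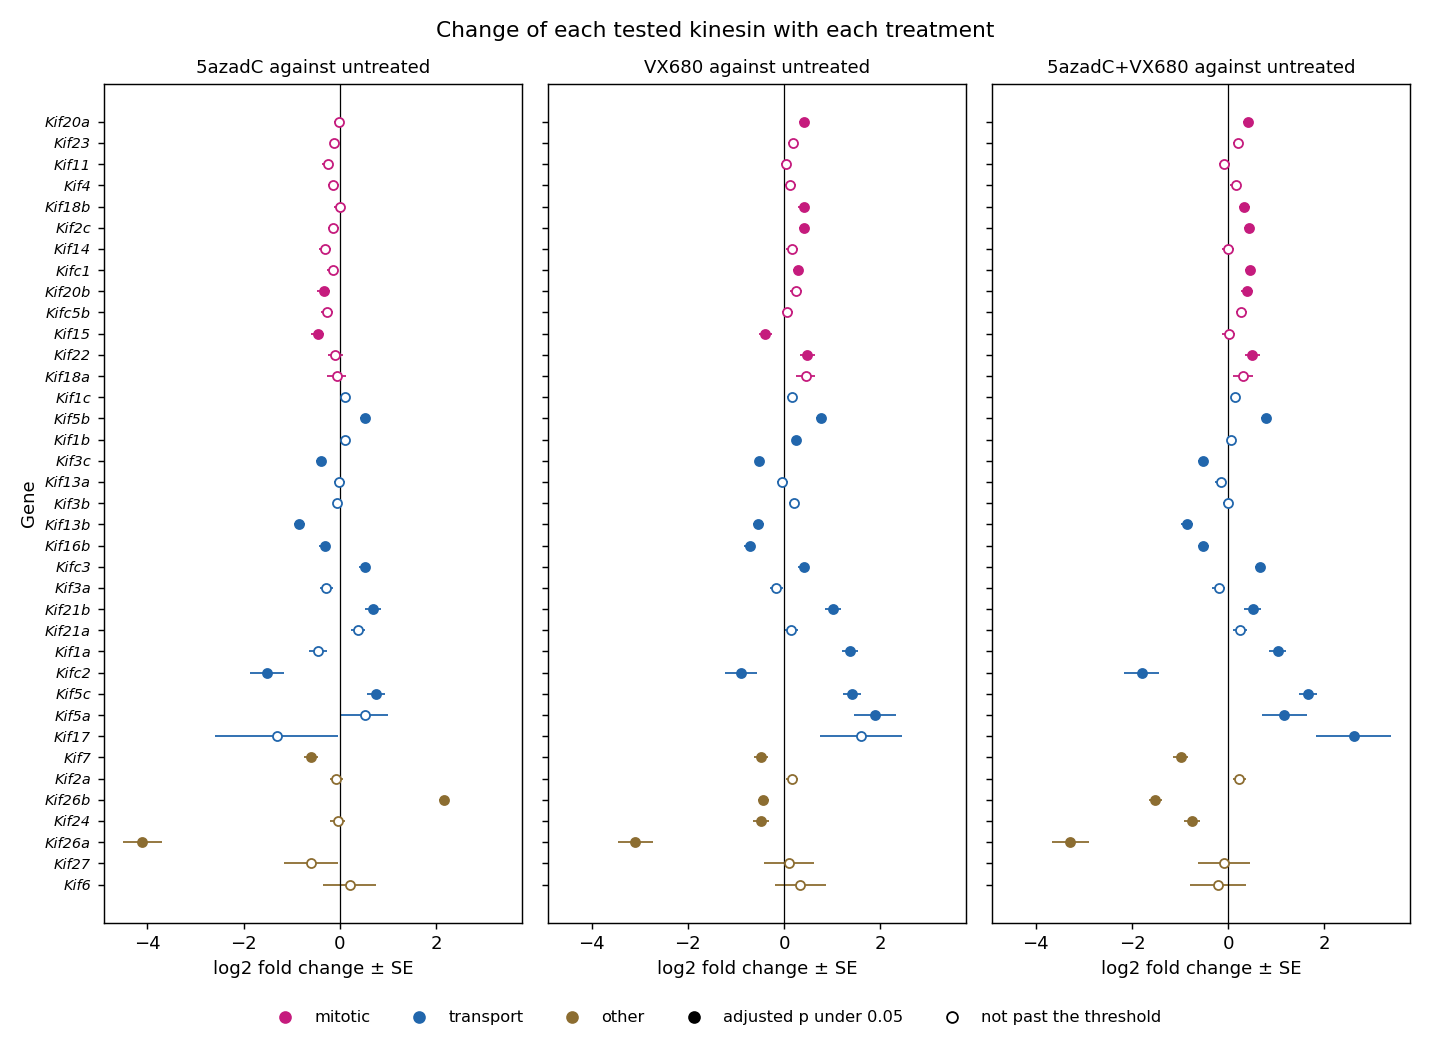
Log2 fold change and its standard error for the 37 tested kinesins, ordered within each class by untreated level, in the 3 comparisons with untreated cells, with filled points where edgeR's adjusted p was under 0.05. Mitotic kinesins stay within 0.5 of 0, while transport kinesins and Kif26a and Kif26b spread further in both directions.

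Transport kinesins changed in both directions and by more. With 5azadC 4 were higher and 4 lower of 17, with VX680 7 and 4, and with both drugs 7 and 4, the median log2 fold changes being -0.01, 0.21 and 0.14. Kif17, among the 7 higher with both drugs, had enough reads for a test through that same group. Called in either direction were 42.2%, 46.1% and 55.7% of all genes in those comparisons, with 22.6%, 23.8% and 28.4% higher and 19.6%, 22.4% and 27.3% lower. Both counts with 5azadC, and the lower counts with VX680 and with both drugs, are near these shares. Their summed level was 1455 and 1472 CPM with 5azadC, 1585 and 1648 CPM with VX680, 1552 and 1549.6 CPM with both drugs and 1321 and 1410.0 CPM in untreated cells. Every treated library lay above both untreated ones in that sum, which leans on the genes with most reads. Kif5b alone had a mean of 215 CPM untreated, 307 with 5azadC, 364 with VX680 and 369 with both drugs. The sum is thus no measure of a rise across the class, whose median with 5azadC was -0.01. The 4 higher with 5azadC became 2 without untreated replicate 1, and the 7 higher with both drugs became 4 without the first library given both. Of all kinesin genes, 13, 21 and 21 were called in the 3 comparisons. These counts dropped to 8 with 5azadC without untreated replicate 1, and with VX680 to 9 without VX680 replicate 1 and 13 without untreated replicate 2.

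**Figure D3:**
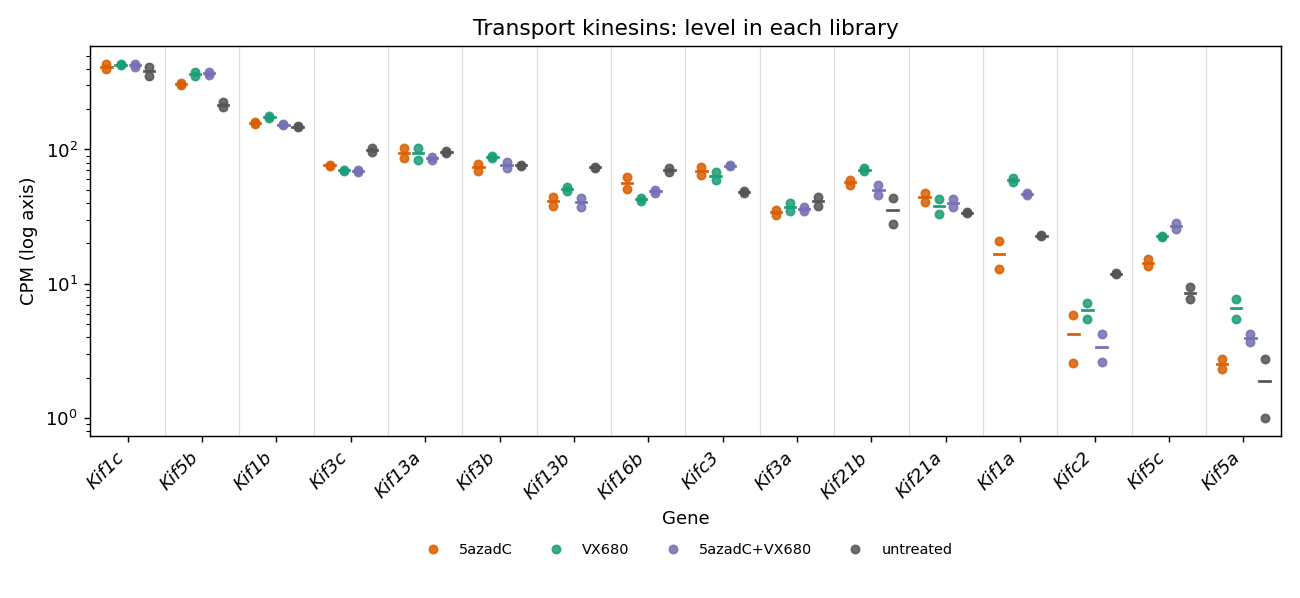
Level of 16 tested transport kinesins in each library, in CPM on a log axis, with 1 point per library and a bar at the group mean (Kif17, with no read in 1 library, is left out). Kif5b, Kif5c and Kifc3 are higher in every treated library than in untreated ones, and Kif13b, Kif16b, Kif3c and Kifc2 are lower.

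The kinesin-1 heavy chains, which haul mitochondria and vesicles with the kinesin light chains, were among those that rose. Kif5b, their widely expressed member, had 301 and 313 CPM with 5azadC, 352 and 376 CPM with VX680, 360.1 and 377 CPM with both drugs and 206 and 224 CPM in untreated cells. No treated library overlapped the untreated ones, and edgeR's log2 fold changes were 0.51 ± 0.09, 0.76 ± 0.09 and 0.78 ± 0.09 (adjusted p = 0.000396, 1.23e-05 and 5.66e-06). Kif5c, best known from neurons, had 13.5 and 15.2, 22.9 and 22.2, and 25.6 and 28.4 CPM in the same order of treatments, against 7.70 and 9.52 CPM untreated. All treated libraries were again above the untreated ones (0.75 ± 0.19, 1.40 ± 0.19 and 1.66 ± 0.19, edgeR adjusted p = 0.00684, 4.02e-05 and 5.28e-06), with the 5azadC call lost without untreated replicate 1 (0.0846). Kif5a, the third heavy chain, stayed at low reads: 21 and 20 with 5azadC, 56 and 58 with VX680, 30 and 27 with both drugs and 11 and 19 in untreated libraries. VX680 gave it a log2 fold change of 1.89 ± 0.44 (edgeR adjusted p = 0.00322, or 0.0553 without untreated replicate 1). With both drugs the value was 1.17 ± 0.47 (edgeR adjusted p = 0.0478), a call lost in 7 of 15 alternative settings, among them those without either library given both drugs (0.167 and 0.104), without either VX680 library (0.0678 and 0.0710) or without untreated replicate 1 (0.408).

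Kif1a, which carries synaptic vesicle precursors in neurons, had 12.8 and 20.8 CPM with 5azadC, 57.8 and 60.9 CPM with VX680, 45.8 and 47.1 CPM with both drugs and 22.9 and 22.7 CPM in untreated cells. It was higher in all libraries with VX680, by 1.38 ± 0.17 alone and 1.03 ± 0.17 with 5azadC (edgeR adjusted p = 1.89e-05 and 0.000174), and 5azadC alone did not pass the test (-0.46 ± 0.18, 0.0620). That value depends on the setting, since it passed with the replicate block (0.0481), by limma (0.0489), without a filter (0.0322) and without 5azadC replicate 2 (-0.85, 0.000566). Its relative Kif1b rose with VX680 by 0.24 ± 0.09 (edgeR adjusted p = 0.0324), a call lost in 9 of 15 alternative settings, among them those without either VX680 library (0.103 and 0.192) or either untreated library (0.138 and 0.0892). Kif1c had 395 and 433 CPM with 5azadC, 422 and 435 with VX680, 434 and 412 with both and 354 and 412 untreated, and was not called by edgeR in these comparisons, while limma called it higher with VX680 and with both drugs (adjusted p = 0.0173 and 0.0212). Neuron markers moved too, though most were hardly present: 4 of 11 had enough reads for a test, 2 were higher with VX680 and 2 with both drugs, 1 higher and 1 lower with 5azadC, and Snap25 had no read in any library. Each 2 became 1 without untreated replicate 1, the first also without VX680 replicate 1 and the second without the first library given both drugs. The summed level of the 11 was 167 to 168 CPM with 5azadC, 218 to 220.4 with VX680, 186 to 188 with both drugs and 184 to 195 CPM in untreated cells. Of all genes tested, 23.8% were higher with VX680 and 28.4% with both drugs, and 22.6% were higher and 19.6% lower with 5azadC. The 1 higher and 1 lower of 4 neuron markers with 5azadC are near those shares. Stmn2 and Syn1, at means of 0.509 and 0.913 CPM in untreated cells, had enough reads for a test through treated libraries. The part of neuron markers in the change of Kif1a, Kif5a and Kif5c was not tested.

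Markers of other cell types moved as well. Of 6 endothelial markers, 4 were tested, and 2 were higher with 5azadC, 3 with VX680 and 1 with both drugs, with 0 lower by edgeR (adjusted or unadjusted p), DESeq2 or limma. The 3 became 1 without VX680 replicate 2 or either untreated library. Flt1, a receptor of vascular growth factor, had 32.0 and 31.9 CPM with 5azadC, 80.9 and 87.1 CPM with VX680, 70.9 and 62.2 CPM with both drugs and 11.1 and 12.6 CPM in untreated cells. Eng had 199 and 183, 110 and 99.4, and 121 and 109 CPM in the treatments, against 114 and 129 CPM untreated, so it rose with 5azadC only. The summed level of the 6, which leans on Eng and Flt1, was 217 to 232, 192 to 195, and 175 to 196 CPM in the treatments, against 126 to 143 CPM untreated. Of 6 skeletal muscle markers, 3 were tested, and 2, 3 and 2 were higher, with 0 lower by the same tests. Their summed level was 42.5 to 49.5, 30.9 to 34.9, and 32.4 to 34.3 CPM, against 19.9 to 21.4 CPM untreated, and the 3 became 1 without VX680 replicate 1 or either untreated library. Of 7 chondrocyte and adipocyte markers, 4 were tested, of which 3 were higher with 5azadC, 2 higher and 1 lower with VX680, and 3 and 1 with both drugs. Their summed level was 32.3 to 36.3, 28.1 to 28.3, and 40.2 to 42.3 CPM, against 31.4 to 32.1 CPM untreated, and the 3 with 5azadC became 1 without 5azadC replicate 1 or untreated replicate 2. Markers of glia, leukocytes and keratinocytes were sparse, with 3 of 6, 2 of 7 and 1 of 7 tested and summed levels of at most 7.86, 26.8 and 2.93 CPM in any library. Of all genes tested, 22.6% were higher and 19.6% lower with 5azadC, 23.8% and 22.4% with VX680, and 28.4% and 27.3% with both drugs. Near those shares are the 1 of 4 endothelial markers higher with both drugs and the 1 of 4 chondrocyte and adipocyte markers lower. Tek, Pecam1, Des, Myh3, Fabp4 and Col2a1, with means of at most 1.22 CPM in untreated cells, had enough reads for a test through treated libraries. They could hardly be called lower, so the counts of higher and lower markers depend in part on that selection. The part of the markers of these cell types in the kinesin results was not tested.

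Kif21b, a motor that also slows microtubule growth, had 59.5 and 54.1 CPM with 5azadC, 72.9 and 68.6 CPM with VX680, 54.1 and 45.6 CPM with both drugs and 28.0 and 43.3 CPM in untreated cells. Its untreated libraries lay far apart but below all treated ones (0.70 ± 0.17, 1.01 ± 0.17 and 0.51 ± 0.17, edgeR adjusted p = 0.00435, 0.000220 and 0.0210). Without untreated replicate 1 the 5azadC and combined calls were lost (0.0779 and 0.329), the combined one also without the first library given both drugs (0.176). Kifc3, a minus-end motor of the Golgi and cell junctions, had 73.5 and 64.1, 68.1 and 59.3, and 76.8 and 75.1 CPM in the 3 treatments, against 48.7 and 47.3 CPM untreated. It rose in each (0.52 ± 0.11, 0.41 ± 0.11 and 0.66 ± 0.11, edgeR adjusted p = 0.00205, 0.00826 and 0.000198), and the VX680 call was lost without VX680 replicate 1 (0.125) or untreated replicate 2 (0.0512). Kif17, a ciliary and dendritic motor, had 0 and 2 reads with 5azadC, 8 and 10 with VX680, 19 and 11 with both drugs and 5 and 1 in untreated libraries. It had enough reads for a test through the libraries given both drugs, where it was highest. Its call in that group is thus not independent of its selection for the test. With both drugs against untreated the ratio of pooled scaled reads was 6.21, with a counting interval of 2.54 to 18.3 (exact binomial, 95%, counting error only). Its edgeR adjusted p was 0.0118, which became 0.116 without the first library given both drugs and 0.0849 without untreated replicate 2.

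A set of 4 transport kinesins fell in all 3 comparisons, which share the untreated libraries and so are not independent. Of all genes tested, 19.6% were lower with 5azadC, 22.4% with VX680 and 27.3% with both drugs. The share of all genes that were lower in all 3 was not counted. Kif13b, which moves lipid-binding and scaffold cargo, had 38.1 and 44.4 CPM with 5azadC, 52.2 and 49.2 with VX680, 37.3 and 43.8 with both drugs and 73.3 and 74.2 CPM in untreated cells, without overlap (-0.84 ± 0.12, -0.54 ± 0.12 and -0.86 ± 0.12, edgeR adjusted p = 8.38e-05, 0.00188 and 3.78e-05). Kif3c, a partner of Kif3a in the kinesin-2 family, had 75.4 and 76.7, 70.2 and 69.6, and 67.7 and 70.8 CPM, against 103 and 96.5 CPM untreated. Treated and untreated libraries were apart in each case (-0.39 ± 0.09, -0.51 ± 0.09 and -0.53 ± 0.09, edgeR adjusted p = 0.00410, 0.000527 and 0.000332). Kif16b, which positions early endosomes, had 62.0 and 50.7, 41.6 and 43.9, and 50.1 and 47.8 CPM, against 67.9 and 72.8 CPM. Its VX680 decrease was the widest (-0.72 ± 0.12, edgeR adjusted p = 0.000236), and its 5azadC call sat near the threshold (-0.31 ± 0.12, 0.0439) and was lost in 12 of 15 alternative settings, 7 of them with 1 library left out and adjusted p between 0.0635 and 0.212. Kifc2, a minus-end motor known from neurons, had 2.56 and 5.89, 7.26 and 5.45, and 4.21 and 2.62 CPM, against 12.0 and 11.9 CPM in untreated cells. Every treated library was lower (-1.52 ± 0.36, -0.89 ± 0.33 and -1.80 ± 0.37, edgeR adjusted p = 0.00364, 0.0420 and 0.000955), the VX680 call being lost without either VX680 library, without either untreated library or without the first library given both drugs (0.0809, 0.225, 0.132, 0.110 and 0.0502).

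Cargo adaptors of these motors and the opposing motor dynein were measured as well. Of 16 tested light chains and adaptors, 3 were higher and 4 lower with 5azadC, 5 and 2 with VX680, and 5 and 3 with both drugs. The 3 became 1 without untreated replicate 1, the 4 became 2 without 5azadC replicate 1 or untreated replicate 2, and the 3 lower with both became 5 without either 5azadC library. Fez1, an adaptor of kinesin-1, had 22.6 and 15.3 CPM with VX680 against 6.70 and 6.44 CPM in untreated cells (1.53 ± 0.25, edgeR adjusted p = 0.000191). Kifap3, the shared subunit of kinesin-2, had 44.7 and 43.4 CPM with VX680 against 70.2 and 69.9 CPM untreated (-0.67 ± 0.11, adjusted p = 0.000313). Of 24 tested dynein and dynactin genes, 5 were higher with 5azadC, 11 higher and 1 lower with VX680, and 12 and 1 with both drugs. By limma the 1 lower with VX680 was 0. Higher calls made up 22.6%, 23.8% and 28.4% of all genes in these comparisons, and lower calls 19.6%, 22.4% and 27.3%. The light chain and adaptor counts are near these shares, and so are the 5 dynein and dynactin genes higher with 5azadC. The 5 became 3 without 5azadC replicate 2 and 2 without either untreated library, and the 11 became 5 and 6 without VX680 replicates 1 and 2 and 7 without untreated replicate 2.

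The other kinesins held the largest changes of the family. Kif26a and Kif26b are relatives whose motor region binds microtubules without ordinary motor activity. Kif26b had 140.0 and 141 CPM with 5azadC, 21.9 and 24.9 CPM with VX680, 11.2 and 10.7 CPM with both drugs and 30.5 and 32.4 CPM in untreated cells. All 4 groups were apart from each other. 5azadC raised it 4.48-fold (log2 fold change 2.16 ± 0.11, edgeR adjusted p = 1.81e-08), whereas it was lower with VX680 (-0.43 ± 0.12, adjusted p = 0.00916) and with both drugs (-1.51 ± 0.13, adjusted p = 6.15e-07). The VX680 decrease did not pass without VX680 replicate 1 (0.112).

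**Figure D4:**
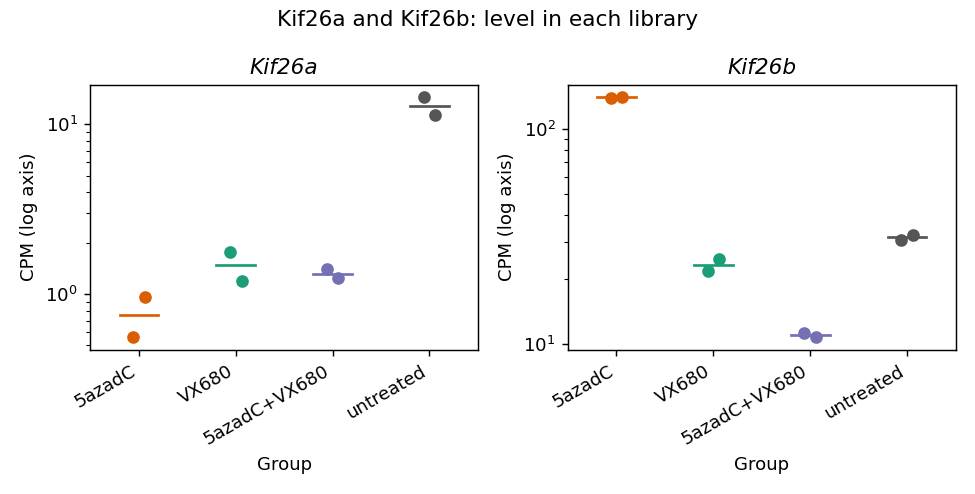
Level of Kif26a and Kif26b in each library, in CPM on a log axis, with 1 point per library and a bar at the group mean. Kif26a is low in all 3 treated groups, and Kif26b is high with 5azadC alone, at 140.0 and 141 CPM, and lowest with both drugs.

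Kif26a had 0.557 and 0.959 CPM with 5azadC, 1.77 and 1.20 CPM with VX680, 1.40 and 1.24 CPM with both drugs and 14.5 and 11.3 CPM in untreated cells. These levels rest on 5 to 18 reads in each treated library and on 160 and 77 reads in the untreated ones. All treated libraries were far below the untreated ones, with edgeR log2 fold changes of -4.10 ± 0.41, -3.09 ± 0.36 and -3.28 ± 0.38 (adjusted p = 4.54e-06, 1.37e-05 and 7.37e-06).

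Kif7, which sits at the tip of the primary cilium and tunes Hedgehog signalling, had 31.3 and 36.2 CPM with 5azadC, 34.8 and 38.6 CPM with VX680, 25.0 and 26.6 CPM with both drugs and 43.9 and 58.9 CPM in untreated cells. It was lower in every treated library (-0.60 ± 0.15, -0.48 ± 0.15 and -0.98 ± 0.16, edgeR adjusted p = 0.00588, 0.0179 and 0.000119). Without untreated replicate 2 the 5azadC and VX680 calls were lost (0.0735 and 0.195), the VX680 call also without VX680 replicate 1 (0.140). Kif24, which trims centriolar microtubules and holds back ciliation, fell with VX680 (-0.48 ± 0.17) and with both drugs (-0.76 ± 0.17) but passed no threshold with 5azadC (-0.05 ± 0.16). Its VX680 call was lost without either VX680 library (0.0840 and 0.154) and without untreated replicate 1 (0.155). Kif2a, Kif6 and Kif27 were not called by edgeR in these comparisons. Among the 7 tested other kinesins, 1 was thus higher and 2 lower with 5azadC, near the 22.6% and 19.6% of all genes. Lower with VX680 were 4 and with both drugs 4, where 22.4% and 27.3% of all genes were lower. With VX680, DESeq2 called 3 lower and limma 1, and edgeR called 1 without VX680 replicate 1, while the 2 lower with 5azadC became 1 without untreated replicate 2. None rose with VX680 or with both drugs, by edgeR at an adjusted or unadjusted p under 0.05, by DESeq2 or by limma. Of all genes, edgeR called 23.8% and 28.4% higher in these 2 comparisons.

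Of 24 genes of the cilium and intraflagellar transport, 1 was higher and 12 lower with 5azadC, 1 and 15 with VX680, and 0 and 15 with both drugs (0 higher at an unadjusted p under 0.05 by edgeR, and by DESeq2 and limma). Of all genes, 19.6%, 22.4% and 27.3% were lower and 22.6%, 23.8% and 28.4% higher in these comparisons. The single rise was not called without VX680 replicate 1 or untreated replicate 1 in the VX680 comparison, and became 2 and 3 without 5azadC replicates 1 and 2 in the 5azadC comparison. Dync2h1, the heavy chain of the ciliary dynein, had 27.0 and 34.9 CPM with 5azadC, 25.7 and 27.7 CPM with VX680, 21.2 and 19.0 CPM with both drugs and 66.5 and 63.3 CPM in untreated cells. Gli3, a Hedgehog transcription factor processed at the cilium, fell by 0.72, 1.42 and 1.63 on the log2 scale. The kinesin-2 motors Kif3a and Kif3b, which drive transport into the cilium, were not called by edgeR in these comparisons, while limma called Kif3b higher with VX680 (adjusted p = 0.0324). Kif3a had 6.28 ± 0.39 RPKM with 5azadC, 6.85 ± 0.64 with VX680, 6.64 ± 0.37 with both drugs and 7.60 ± 0.79 RPKM in untreated cells (SD, n = 2 each).

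Whether 1 drug acted alike with and without the other was tested as an interaction, the effect of VX680 on top of 5azadC minus its effect alone. It was called for 5 kinesin genes, 2 with a positive and 3 with a negative term, against 4.95% and 10.6% of all genes tested. Kif26b had the widest negative term (-3.24 ± 0.18, edgeR adjusted p = 3.30e-07) and its lowest level with both drugs. Kif26a had a positive one (3.91 ± 0.66, 0.00149) and was low in all treated groups. Kif15 was lower with either drug alone and had 37.6 and 40.1 CPM with both, within reach of its untreated 42.0 and 34.9 CPM (0.85 ± 0.19, 0.00951). Kif21b and Kif5b rose with each drug and, with both, less than the sum of the single log2 fold changes (-1.20 ± 0.23 and -0.49 ± 0.12, edgeR adjusted p = 0.00361 and 0.0159). The count of 5 became 8 without 5azadC replicate 2 and 3 without the second library given both drugs, and Kif15 then stood at 0.0521. Kif5b was not called without either VX680 library, either library given both drugs or untreated replicate 1 (0.0522, 0.0982, 0.0842, 0.0552 and 0.0775).

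Adding 5azadC to VX680 changed 1 kinesin gene, Kif26b (-1.08 ± 0.14, edgeR adjusted p = 0.000653), where 2.45% of all genes were higher and 4.05% lower, 6.5% in either direction. At an unadjusted p under 0.05, 1 mitotic kinesin was higher, and 1 transport kinesin was higher and 4 lower, while edgeR, DESeq2 and limma called 0 of either class after adjustment. The count of 1 became 4 without either 5azadC library and 2 without either untreated library.

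Reads that could be assigned to the mus or cas allele were then used to see whether the drugs shifted allelic balance. Of the kinesin genes, 33 had a mean of at least 10 such reads per library, among 10301 genes. No kinesin gene changed its mus to cas ratio by edgeR in any of the 3 comparisons with untreated cells, in which 0.282%, 0.379% and 0.515% of all genes were called. At an unadjusted p under 0.05 there were 2 with 5azadC, 1 with VX680 and 2 with both drugs. Kif26b came nearest with 5azadC: its mus share was 53.8% and 57.9% with 5azadC and 72.6% and 71.9% in untreated cells (edgeR adjusted p = 0.567).

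Allelic balance differed between genes more than between treatments. Over all libraries pooled, 29 of 32 autosomal kinesin genes had a mus share between 25% and 75%. The 3 outside were Kif18a, with 411 of 413 reads from mus (99.5%, exact binomial 95% interval 98.3 to 99.9), Kif5c with 85.1% (80.6 to 89.0) and Kifc1 with 77.8% (75.6 to 79.8). Kifc5b, the near copy of Kifc1, leaned the other way with 34.1% (30.7 to 37.6). Intervals cover counting error only. How reads of such copies were placed on alleles is not given in the sources used here.

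**Figure D5:**
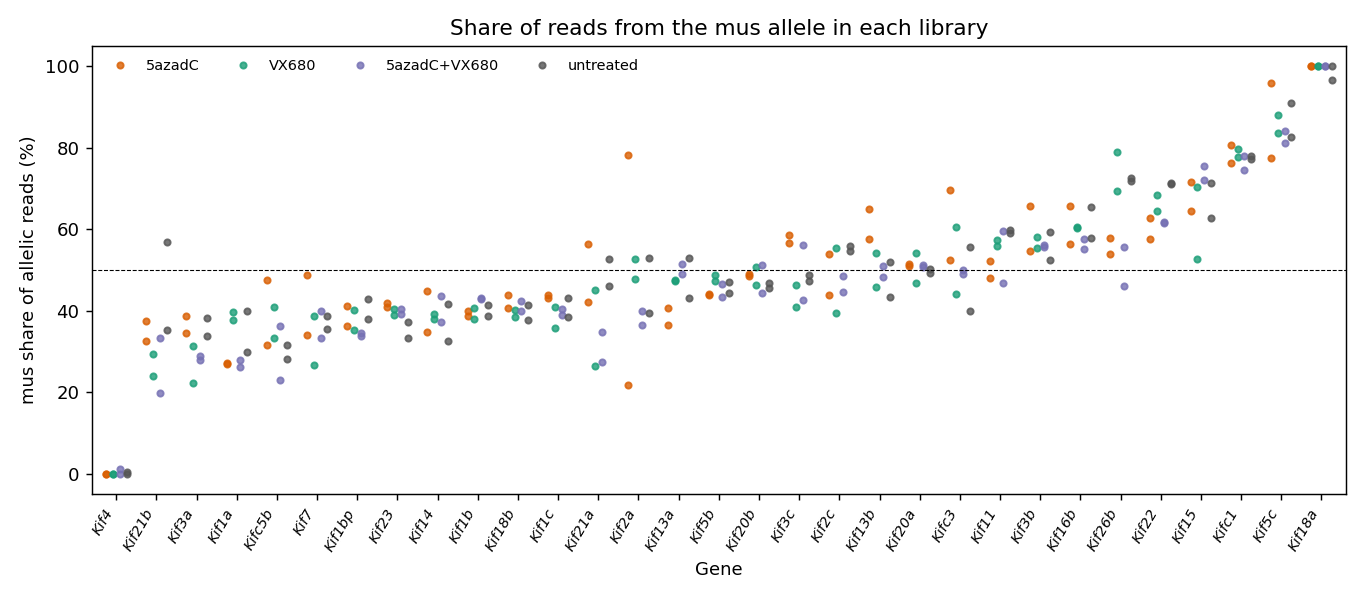
Share of allele-assigned reads from the mus allele in each library, in percent, for the 31 kinesin genes that passed the read minimum and have at least 200 such reads in all, ordered by pooled share, with a dashed line at 50%. Kif4 sits at or near 0 and Kif18a near 100 in every library, and treated and untreated points overlap for most genes in between.

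Kif4, a chromosome-bound motor that organises mitotic chromosomes and the central spindle, is the only kinesin gene here on the X chromosome. Of its 1416 allele-assigned reads, 3 were from mus, a share of 0.212% (exact binomial 95% interval 0.0437 to 0.618). These were 0 and 0 with 5azadC, 0 and 0 with VX680, 0 and 2 with both drugs, and 1 and 0 in untreated libraries. A count of 0 allows a share of up to 1.75% and 2.80% in the 5azadC libraries and 1.39% and 1.66% in the VX680 libraries, by 3 counts of each library's total. Among 277 X-linked genes with enough reads, 64 had a lower mus share, and the median was 0.839%. Over the whole X chromosome the mus share was 5.38% and 4.94% with 5azadC, 4.87% and 5.03% with VX680, 5.81% and 5.81% with both drugs and 4.08% and 4.10% in untreated cells. Total Kif4 level was not called by edgeR in the comparisons with untreated cells, with 115 and 91.1 CPM with 5azadC, 118 and 129.8 CPM with VX680, 122 and 129.7 CPM with both drugs and 122 and 104 CPM in untreated cells. Without 5azadC replicate 1 it was lower with 5azadC (log2 fold change -0.31, edgeR adjusted p = 0.0455). Between both drugs and 5azadC it was called higher by limma (adjusted p = 0.0366) and by edgeR without 5azadC replicate 1 (adjusted p = 0.00803), but not by edgeR with all libraries.

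For 6 kinesin genes there were too few reads for a test. Kif19a, a kinesin that limits cilium length, had 0 and 0 reads with 5azadC, 9 and 4 with VX680, 1 and 3 with both drugs and 0 and 0 in untreated libraries. Its pooled level with VX680 was 4.37 times a limit of 3 reads over the untreated group. That ratio leaves out the counting error of the 13 reads with VX680, and no test was made. Kif9, a ciliary motor, had 3 and 2, 13 and 8, and 1 and 2 reads in the 3 treatments, against 8 and 1 untreated. Kif12 had 0 reads in every treated library and 1 and 3 in untreated ones. Kif2b had 1 read in all, in VX680 replicate 2, Kif16bos had 1 in untreated replicate 1, and Kif4-ps had 0 to 2 per library. Kif1bp was tested and was not called in any comparison with untreated cells.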

How the data were processed

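Total RNA of 8 libraries was sequenced as strand-marked (dUTP) libraries, 2 in each of 4 groups that were taken from the sample labels. TopHat2 2.0.10, HOMER 4.8, edgeR and the genome build mm9 are named, without their roles, in the submitters' processing notes. Raw read counts per gene over both alleles come from a composite table that the authors deposited, and another deposited table gives counts for the mus and the cas allele of each gene. A further deposited table holds the authors' normalized composite signal, used in an alternative only. Gene length in bases is another column of the deposited tables and was used for RPKM. The authors' tables of differential genes were not used.

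From the counts, edgeR 4.0.16 in R 4.3.3 was run on all genes that passed filterByExpr, with TMM scaling, 1 mean per group over all 8 libraries and the quasi-likelihood F test, with Benjamini-Hochberg adjustment over all 12643 genes tested and a threshold of 0.05. CPM is scaled by the TMM factors. Allele ratios were tested on the mus and cas counts with a term for each library, for genes with a mean of at least 10 allele-assigned reads per library. Both tests were checked on simulated data. Symbols of all 44 members matched GENCODE M21, whose sequences were used for the comparison of copies. Not every overlap of exons found there is reported here. The labels do not say what a replicate number shares between groups, so a block for it was fitted only as an alternative. Deviations of same-numbered libraries from their group means correlated between -0.0622 and 0.0326 across genes. Such values show no large shared effect and cannot tell whether the libraries were paired.

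The kinesin genes, their classes and the other gene lists were chosen with earlier results of these data known. Described in full were, in each comparison with untreated cells, up to 3 called members per class and direction by smallest p, all members called in the interaction, the X-linked member and the 3 highest per length. From each other list up to 4 genes with the smallest p could be named, and Cenpe, Aurka and Aurkb. Alternatives were another scaling (RLE), DESeq2 1.42.0, no filter, a mean CPM of at least 1, limma 3.58.1 on log2(signal + 1), a replicate block, only the 2 groups compared, Kif2a counted as mitotic, other read minimums (5 and 20) and TMM for alleles, and each library left out.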

Additional observations from a re-analysis of the deposited data

Results flagged for a closer look

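The effect of VX680 on 5 kinesin genes differed with and without 5azadC by the interaction term of edgeR's quasi-likelihood fit over all 8 libraries. These are 5 of 38 kinesin genes tested, near the 15.6% of all genes with such a call (4.95% positive and 10.6% negative). The term was -3.24 for Kif26b on the log2 scale (adjusted p = 3.30e-07) and 3.91 for Kif26a (adjusted p = 0.00149). Kif21b had -1.20 (adjusted p = 0.00361), Kif15 0.854 (adjusted p = 0.00951) and Kif5b -0.494 (adjusted p = 0.0159). Over the 14 alternatives run, the term for Kif26b lay between -3.34 and -3.16 and that for Kif26a between 3.54 and 4.33, with adjusted p of at most 1.66e-05 and 0.0148. Kif21b kept its call in all 14, with adjusted p of at most 0.0297. Kif15 lost its call in 1 and Kif5b in 5 of the 14, with adjusted p of up to 0.0521 and 0.0982.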

How the results depend on the processing

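Of 76 calls of kinesin genes over 6 tests, 40 were kept in all alternatives, 36 were lost in at least 1 and 0 reversed among calls, while 25 of 152 uncalled results passed in at least 1. Mitotic kinesins lower with 5azadC, 2 in the report, were 1 by DESeq2, with a mean CPM of at least 1 and by limma, and 0 with only the 2 groups fitted. With VX680, limma called 8 mitotic kinesins higher in place of 5, and DESeq2 and limma called 0 lower in place of 1. Between both drugs and VX680, kinesin genes called were 3 without a filter and 5 with only the 2 groups fitted, in place of 1. The causes were not tested. With the replicate block, mitotic kinesins lower with 5azadC were 1, kinesin genes called between both drugs and VX680 were 2, and the other counts stayed within 1.5 times. Left-out libraries gave these ranges. With 5azadC, kinesin genes called ran from 8 to 16, mitotic lower from 0 to 5 and transport higher from 2 to 5. With VX680, they ran from 9 to 21 called, 0 to 5 mitotic higher and 0 to 1 mitotic lower. With both drugs, mitotic higher ran from 2 to 7 and transport higher from 4 to 7. Mitotic kinesins higher with both drugs against 5azadC ran from 4 to 11. Called genes ran from 8 to 15 against 5azadC, 1 to 4 against VX680 and 3 to 8 for the interaction. The authors' scaling in the limma alternative moved the median of all genes to 0.12 with VX680, 0.12 with both drugs and 0.10 for both against 5azadC, where the mitotic medians were 0.37, 0.43 and 0.53. All genes called higher and lower were then 3646 and 2144, 4146 and 2883, and 1904 and 1330, against 3005 and 2829, 3586 and 3454, and 1262 and 1877 with TMM. Counting Kif2a as mitotic and the other allele settings left those counts within 1.5 times. With 2 libraries a group, fits without 1 library assume that the lone library varies like the other groups.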
